A study of Mus musculus with 36 samples.

Results

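The expression of 3 vascular miRNA hairpins, Mir126a, Mir143 and Mir145a, was followed in postnatal mouse kidneys through the 6 mature miRNAs that they give. These are mmu-miR-126a-3p, mmu-miR-126a-5p, mmu-miR-143-3p, mmu-miR-143-5p, mmu-miR-145a-5p and mmu-miR-145a-3p (written without the prefix from here on), where 5p and 3p name the arm of the hairpin from which the strand is cut. They were chosen by name and make up 6 of the 1915 mature miRNAs in the read count table. All 6 were read in every library and passed the filter on low counts. The kidneys came from C57BL/6 mice of a Pkd1 and a Pkd2 line that were 1, 3 or 7 days old (P1, P3 and P7). WT animals were Pkd1f/f or Pkd2f/f, that is, both alleles were floxed and no Cre was present. KO animals were Pkd1f/f:HoxB7-Cre or Pkd2f/f:HoxB7-Cre, in which the Cre acts in the ureteric bud and its collecting duct epithelium, and not in endothelium or smooth muscle. By the study's methods, the KO and WT animals were littermates. Each of the 12 groups held 3 miRNA-seq libraries of total kidney RNA, 36 in all.

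miR-126 lies within Egfl7, a gene of endothelial cells, and is the classical endothelial miRNA, known for its part in vessel integrity and in the response to vascular endothelial growth factor. miR-143 and miR-145 are transcribed together and are abundant in smooth muscle and in other mural cells of the vessel wall, where they are known to maintain the contractile state. In the kidney both would be read from glomerular and peritubular capillaries, from arteries and arterioles, and, for miR-143 and miR-145, also from other stromal cells. Because RNA of whole kidneys was sequenced, fewer cells of a type and less miRNA per cell cannot be told apart.

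Mir126a spans chr2:26591357-26591429 on the plus strand of mm10 (GRCm38). In the GENCODE M21 annotation, it falls in an intron of 8 transcripts of Egfl7 and in an exon of 1, and in an intron of 1 transcript of the overlapping gene Gm20532. Mir126b was annotated on the opposite strand of the same place, at chr2:26591363-26591420. The mature miRNAs printed here, from RefSeq with build GRCm38.p6, show how the strands read from either side of the miR-126 locus can be told apart, and the capitals mark the seed, bases 2 to 8:
miR-126a-3p: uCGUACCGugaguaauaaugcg
miR-126b-5p: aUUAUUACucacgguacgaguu
miR-126b-3p: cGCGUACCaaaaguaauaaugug
miR-126a-3p (chr2:26591402-26591423, plus strand) and miR-126b-5p (chr2:26591399-26591420, minus strand) are read from opposite strands of 19 shared positions, and their seeds differ. miR-126a-5p, which gave most reads of the locus (9866512), is named only.

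Mir145a (chr18:61647825-61647894) and Mir143 (chr18:61649196-61649258) are both on the minus strand, 1301 bases apart. GENCODE M21 lists no other gene over either, whereas the RefSeq model of the noncoding RNA Carmn (chr18:61645878-61665538, GRCm38.p6) spans both.

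Library totals ran from 12569939 to 32663566 reads (median 24008082). The 6 members held between 1.81% and 12.6% of a library (median 6.20%). Another pair, miR-10a-5p and miR-10b-5p, took from 31.4% to 81.0% of the reads (their sum is called the miR-10 share), so that the room left for all other miRNAs differed widely. Values are therefore given as counts per 1000000 reads after TMM scaling (CPM), in which a factor computed from the bulk of miRNAs replaces the plain library total. CPM of the 2 lines come from separate fits and their levels were compared only where a common fit is named. A read covers the whole of a mature miRNA, so no correction for length was needed between members. In tests, a miRNA was called when the Benjamini-Hochberg adjusted p of edgeR's quasi-likelihood test over all miRNAs fell under 0.05.

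The 6 members covered more than 3 orders of magnitude and kept nearly the same order in all libraries. Of all reads of the 6, mmu-miR-143-3p gave 74.7%, mmu-miR-126a-5p 19.04%, mmu-miR-126a-3p 4.45%, mmu-miR-145a-5p 1.65%, mmu-miR-145a-3p 0.169% and mmu-miR-143-5p 0.0229%. In a common fit of all 36 libraries, miR-143-3p averaged 42592 CPM and was the 5th most abundant of 775 miRNAs, miR-126a-5p (9376 CPM) the 12th, miR-126a-3p (2306 CPM) the 37th and miR-145a-5p (1275 CPM) the 52nd. miR-145a-3p averaged 97.2 CPM and miR-143-5p 11.7 CPM. In 36 of 36 libraries miR-143-3p exceeded miR-126a-5p, miR-126a-5p exceeded miR-126a-3p, miR-145a-5p exceeded miR-145a-3p, and miR-145a-3p exceeded miR-143-5p. The order of miR-126a-3p and miR-145a-5p was not fixed: miR-126a-3p was higher in 30 libraries and miR-145a-5p in 6.

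Reads of the relatives were nearly absent. miR-126b-3p had 45 reads over all 36 libraries, found in 21 of them, and miR-126b-5p had 14 reads, found in 8. miR-126a-3p, which faces miR-126b-5p on the other strand, had 2304510 reads. miR-145b, from another place on chromosome 18, had 310 reads against 857052 for miR-145a-5p.

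The members differed greatly in how far replicate libraries of 1 group lay apart. miR-126a-3p was among the steadiest miRNAs measured: its SD within groups, on the log2 CPM scale of the common fit, was 0.116, against a median of 0.445 over the 775 miRNAs, and it was lower than that of each of the 30 other miRNAs within 1 log2 unit of its level. miR-143-5p, at a level of only 35 to 728 reads per library, had an SD of 0.157. miR-145a-3p (0.322), miR-126a-5p (0.403) and miR-143-3p (0.424) were below the median of all miRNAs. Against miRNAs within 1 log2 unit of their own level, however, miR-126a-5p had a larger SD than 93.8% of 16 (median 0.239), and miR-143-3p a larger one than both of the 2 (median 0.249). miR-145a-5p stood at the other end with an SD of 1.30, above 98.3% of all miRNAs. Within a single group, its highest library exceeded its lowest by up to 21.4-fold, in KO kidneys of the Pkd1 line at P3. The corresponding largest within-group fold of miR-126a-3p was 1.46.

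**Figure D1:**
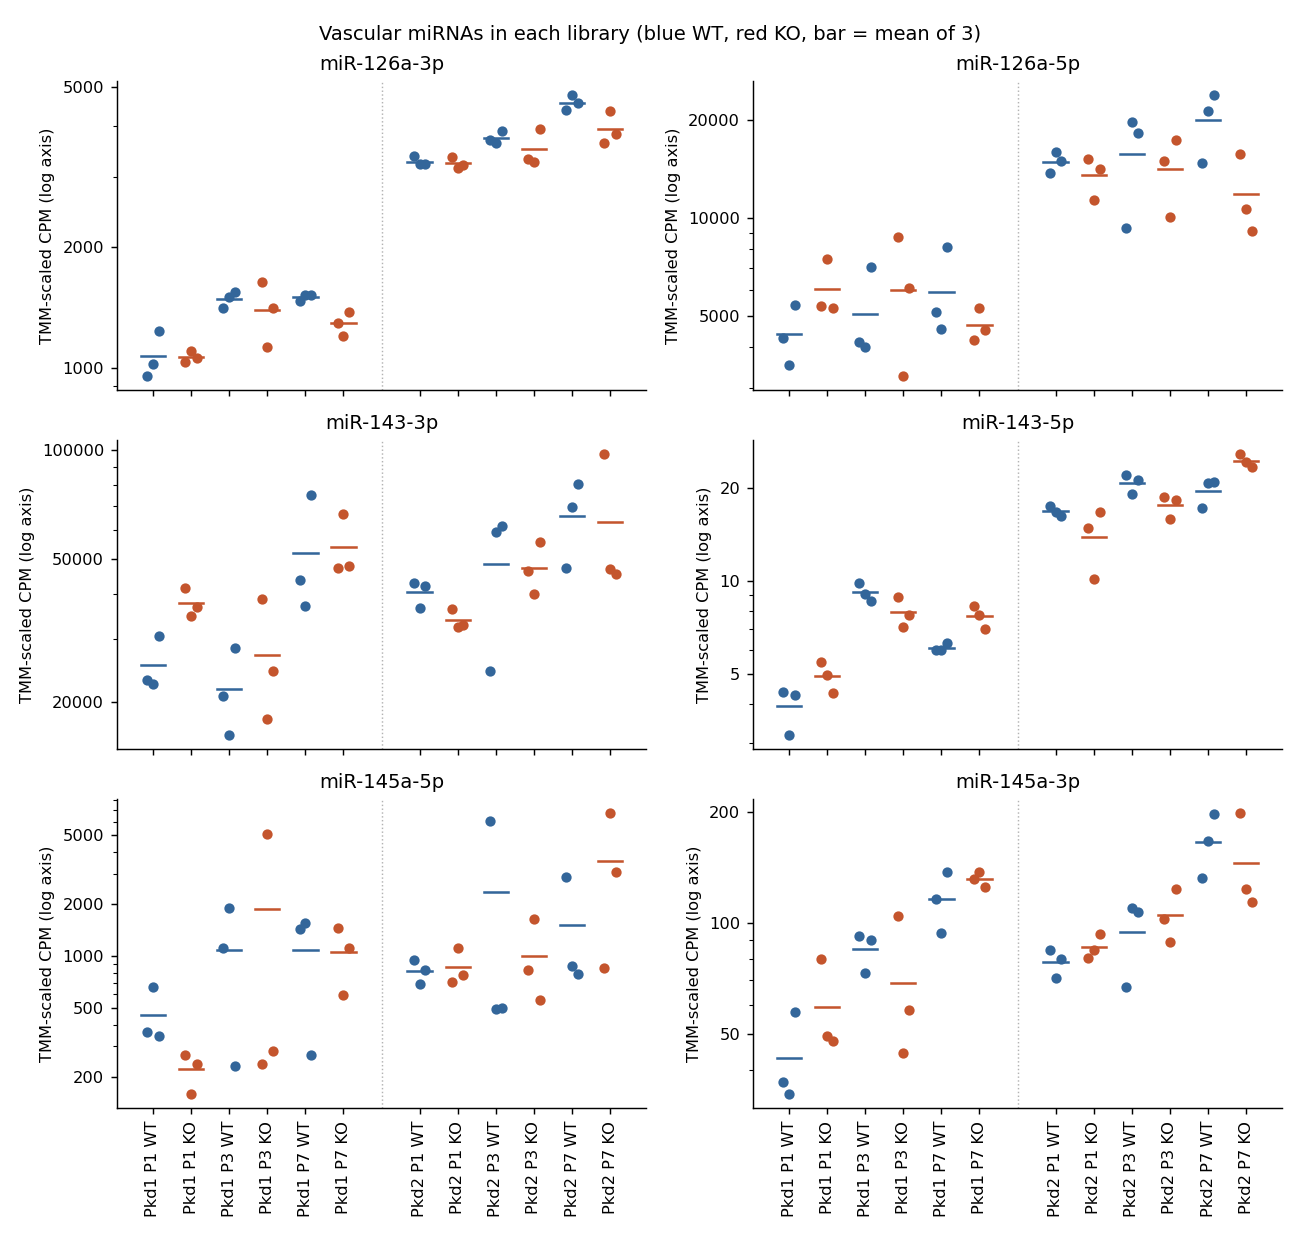
Level of each of the 6 miRNAs in each of the 36 libraries, in TMM-scaled CPM of the fit of its own line on a log axis, by line, age and genotype (blue WT, red KO). Points are libraries and bars are means of 3. Points of miR-126a-3p lie close together within a group, whereas those of miR-145a-5p in the Pkd1 P3 KO group run from 237 to 5089 CPM.

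In the common fit, miR-126a-3p was higher in every library of the Pkd2 line (2347 to 4345 CPM, median 2865) than in every library of the Pkd1 line (1254 to 1967 CPM, median 1552). It was 1 of the 4 miRNAs among 775 (0.516%) whose libraries did not overlap between the lines. The other members overlapped. The ratio of geometric means, Pkd2 line over Pkd1 line, was 1.85 for miR-126a-3p, 1.81 for miR-126a-5p and 1.88 for miR-143-5p, but 0.911 for miR-143-3p, 0.902 for miR-145a-3p and 1.26 for miR-145a-5p. These are descriptions with no test, since the line and anything else that set the 2 sets of libraries apart cannot be told apart.

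Loss of Pkd1 or Pkd2 in the collecting duct was compared with WT first for miR-126a, the endothelial pair. Neither strand was called at any age in either line, and the lowest adjusted p was that of miR-126a-5p in the Pkd2 line at P7. At P7, miR-126a-3p gave 1470.3, 1524 and 1521 CPM in the WT libraries of the Pkd1 line and 1298, 1203 and 1377 CPM in the KO libraries. The Pkd2 libraries gave 4397, 4787 and 4572 CPM in WT and 3634, 4357 and 3822 CPM in KO. In both lines, all 3 KO libraries were below all 3 WT libraries. The log2 fold change was -0.22 (SE 0.14, adjusted p = 0.685) in the Pkd1 line and -0.22 (SE 0.13, adjusted p = 0.269) in the Pkd2 line, neither of them called. At P1, KO and WT overlapped and differed by -0.01 and -0.01 on the log2 scale (Pkd1 and Pkd2 lines), and at P3 by -0.09 and -0.10.

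miR-126a-5p, the more abundant strand, gave 14702, 21350.3 and 23871 CPM in WT and 15709, 10678 and 9087 CPM in KO kidneys of the Pkd2 line at P7. The highest KO library lay above the lowest WT library, so the groups overlapped. The log2 fold change was -0.76 (SE 0.29, adjusted p = 0.088). Without KO replicate 1 it was -1.02 with an adjusted p of 0.0402, and with the DESeq2 test it was -0.79 with an adjusted p of 0.0468, both past the threshold. In the Pkd1 line at the same age, WT libraries held 5119.9, 4535 and 8141 CPM and KO libraries 4216, 5266 and 4530.4 CPM, with a log2 change of -0.34 (SE 0.33, adjusted p = 0.812). At P1 and P3 the fold changes of miR-126a-5p were 0.46 and 0.25 in the Pkd1 line and -0.13 and -0.16 in the Pkd2 line, none called.

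miR-143-3p, the main smooth muscle strand, was not called in any comparison of KO with WT. In the Pkd1 line at P1, the WT libraries gave 23068, 22551 and 30588 CPM and the KO libraries 41401, 34699 and 36821 CPM. All 3 KO libraries were higher, with a log2 change of 0.57 (SE 0.30, adjusted p = 0.572). The order was the opposite in the Pkd2 line at P1, with 42779, 36526 and 42140.5 CPM in WT and 36179.8, 32398 and 32677 CPM in KO, and a log2 change of -0.26 (SE 0.33, adjusted p = 0.982). The difference between these effects, Pkd1 minus Pkd2, was 0.82 (SE 0.47, adjusted p = 0.79) in the common fit and was not called. Over replicate libraries, in deviations from group means, miR-143-3p fell as the miR-10 share rose (r = -0.84). At P1 this share was 63.0% to 75.1% in WT and 57.3% to 61.8% in KO of the Pkd1 line. In the Pkd2 line it was 44.3% to 49.7% in WT and 37.6% to 51.8% in KO, which overlap. Its part in these values was not tested. At P7, miR-143-3p differed by 0.05 (SE 0.30) and -0.06 (SE 0.33) on the log2 scale in the Pkd1 and Pkd2 lines, less than the spread between libraries.

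miR-143-5p, the rare strand of the same hairpin, was higher in all KO than in all WT libraries at P7 in both lines, but was not called. It gave 6.01, 5.98 and 6.29 CPM in WT and 8.34, 7.77 and 7.03 CPM in KO of the Pkd1 line, and 17.2, 20.8 and 20.9 CPM in WT and 25.8, 24.3 and 23.5 CPM in KO of the Pkd2 line. The log2 fold changes were 0.34 (SE 0.18, adjusted p = 0.567) and 0.32 (SE 0.17, adjusted p = 0.247). At P3 in the Pkd2 line the KO libraries (18.8, 15.9 and 18.3 CPM) were instead all below the WT libraries (22.1, 19.1 and 21.3 CPM), with a log2 change of -0.24 (SE 0.17, adjusted p = 1).

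miR-145a-5p had the largest fold changes between KO and WT and also the largest errors. WT libraries of the Pkd1 line at P1 gave 361, 660.2 and 342 CPM and KO libraries 265, 158 and 236 CPM, all KO below all WT, with a log2 change of -1.05 (SE 0.98, adjusted p = 0.679). For the Pkd2 line at P7, WT libraries gave 2859.8, 874 and 791 CPM and KO libraries 855, 6711 and 3085 CPM, with a log2 change of 1.24 (SE 0.85, adjusted p = 0.38). At P3 its value was of the opposite sign in each line, 0.79 (SE 0.97, adjusted p = 0.869) in the Pkd1 line and -1.22 (SE 0.85, adjusted p = 1) in the Pkd2 line. In the Pkd2 line at P7, 1 KO library was as low as the lower WT libraries, and the groups overlapped. The miR-10 share in the Pkd1 line at P1 was 63.0% to 75.1% of the reads in WT and 57.3% to 61.8% in KO. In the Pkd2 line at P7 it was 42.8% to 66.4% in WT (median 47.9%) and 41.1% to 74.1% in KO (median 57.4%). In these 2 comparisons it differed in the direction of the values. At P3 its median went against the fold changes, with 57.4% in WT and 40.6% in KO of the Pkd1 line. In the Pkd2 line it was 38.5% in WT and 48.9% in KO. Those fold changes, however, follow group means that 1 library in each line raised. KO replicate 2 of the Pkd1 line had the highest value of its group (5089 CPM, lowest 237) and a miR-10 share of 79.8%. WT replicate 1 of the Pkd2 line had the highest of its group (6040 CPM, lowest 491) and a share of 71.9%. The changes of miR-145a-5p in the Pkd2 line at P1 and the Pkd1 line at P7 were 0.07 and -0.05. The median shares there were 45.5% and 79.9% in WT and 44.9% and 77.55% in KO. With the miR-10 share as a term of the fit, added after seeing the data, the value of miR-145a-5p in the Pkd1 line at P1 was -0.08 (adjusted p = 0.921) and at P3 0.07. In the Pkd1 line at P7 it was 0.04 (adjusted p = 0.978). In the Pkd2 line it was -0.42 at P3 (adjusted p = 0.989) and 0.58 at P7 (adjusted p = 0.0481). Both were smaller in size than without the term, but at P7 the value was past the threshold. At P1 in the Pkd2 line it was 0.26 (adjusted p = 0.653), larger than without the term. In the same fit miR-126a-5p in the Pkd2 line at P7 was at -0.60 (adjusted p = 0.00924). miR-145a-3p, the other strand, differed from WT by between -0.30 and 0.46 on the log2 scale over the 6 comparisons, with an SE of at most 0.30.

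Counted over the 6 members, a difference between KO and WT was called for 0 of 6 in each of these comparisons. The share of all tested miRNAs called was 0%, 0% and 0.425% at P1, P3 and P7 in the Pkd1 line (706 tested). It was 0%, 0% and 12.6% in the Pkd2 line (746 tested). Where no miRNA was called, an unadjusted p under 0.05 was found for 59 and 64 miRNAs at P1 and P3 in the Pkd1 line, and for 41 and 11 in the Pkd2 line. Among the members 1 had such a p, miR-126a-5p in the Pkd2 line at P7, and the DESeq2 test called 2 members there, miR-126a-5p and miR-126a-3p. Members whose KO and WT libraries did not overlap numbered 2 of 6 at P1, 0 of 6 at P3 and 2 of 6 at P7 in the Pkd1 line. The shares over all miRNAs were 19.8%, 11.9% and 16.3%. They numbered in the Pkd2 line 1, 1 and 2 of 6, beside 13.5%, 4.69% and 25.2%.

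Averaging over the ages narrowed the errors and called none of the 6 members. miR-126a-3p was then at -0.11 (SE 0.08, adjusted p = 0.879) in the Pkd1 line and -0.11 (SE 0.07, adjusted p = 0.401) in the Pkd2 line, the smallest SE of the 6. miR-126a-5p was at -0.35 (SE 0.16, adjusted p = 0.242) in the Pkd2 line, the only member with an unadjusted p under 0.05, and miR-143-3p at 0.31 (SE 0.18, adjusted p = 0.829) in the Pkd1 line. Of all miRNAs, 0.425% and 0.402% were called (Pkd1 and Pkd2 lines). The change of the KO effect from P1 to P7 was called for 0 of 6 members in both lines, beside 0.142% and 0.536% of all miRNAs. The difference in KO effect between the lines was called for 0 of 6 at each age, beside 0%, 0% and 0.387% of 775 at P1, P3 and P7. At an unadjusted p under 0.05, miR-143-5p alone passed, in the change from P1 to P7 in the Pkd2 line, at 0.59 (SE 0.25, adjusted p = 0.24), and in the difference between lines at P1, at 0.59 (SE 0.22, adjusted p = 0.542). The DESeq2 test called 0 members in each of these averaged, age and line comparisons.

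**Figure D2:**
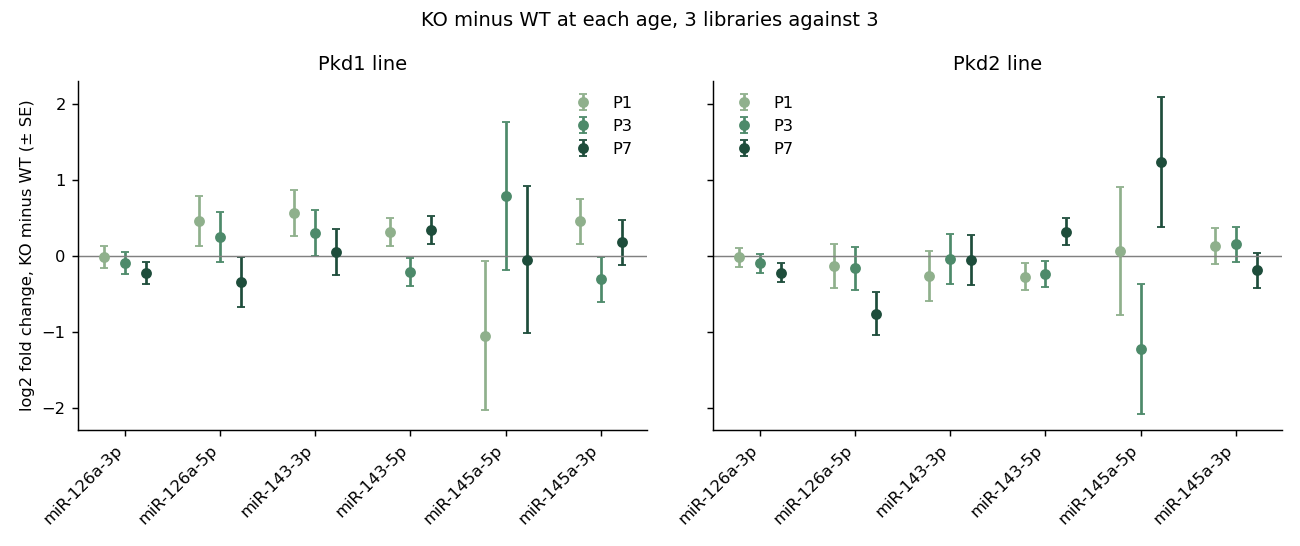
Log2 fold change of each miRNA, KO minus WT, at P1, P3 and P7 in the Pkd1 line (left) and the Pkd2 line (right), with 3 libraries against 3. Points are edgeR estimates and bars are ± 1 SE. Of the 36 points 33 lie within 1 log2 unit of 0, the other 3 being miR-145a-5p, and the bars of miR-145a-5p are several times those of miR-126a-3p.

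Some markers of other kidney cells did move with genotype in the Pkd2 line at P7, where 12.6% of all miRNAs were called. Of 4 nephron tubule miRNAs 3 fell, among them miR-194-5p (-0.95 log2, adjusted p = 0.0147) and miR-204-5p (-0.92 log2, adjusted p = 0.0159). The summed level of that list was 18137 to 30726 CPM in WT and 7321 to 15574 CPM in KO. Of 5 epithelial miRNAs of the miR-200 family 2 rose, miR-141-3p (0.82 log2, adjusted p = 0.0163) and miR-200c-3p (0.87 log2, adjusted p = 0.0175). The median fold change of the 5 was -0.12 on the log2 scale, and those not called lay at or below it. The summed level of the epithelial list was 7409 to 8220.4 CPM in WT and 7361 to 7741 CPM in KO. Of 5 erythroid miRNAs, which mark red blood cells and so the blood left in the vessels, 1 rose, miR-144-5p (1.13 log2, adjusted p = 0.0204). The summed level of the erythroid list was 4434 to 5718 CPM in WT and 6676 to 10848 CPM in KO. Of the 6 fibroblast, 6 leukocyte and 6 tested striated muscle miRNAs (7 listed), 0 were called. Their sums in WT and KO were 12107 to 14681 and 9252 to 12969 CPM (fibroblast), 874 to 897 and 866 to 1084 CPM (leukocyte), and 22.5 to 25.4 and 34.7 to 141 CPM (striated muscle, with 1 miRNA at 0 in all WT libraries). In the Pkd1 line at P7, 0 miRNAs of any of these lists were called, beside 0.425% of all miRNAs. The median fold change of the 6 vascular members in the Pkd2 line at P7 was -0.12 on the log2 scale, beside 0.02 over all miRNAs, and the part of these cell types in the vascular values was not tested.

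Age in WT kidneys was compared next, and here several of the vascular miRNAs rose between P1 and P7 on the TMM scale. Of the 6 members, 4 were called in the Pkd1 line, all higher at P7 (miR-126a-3p, miR-143-3p, miR-143-5p and miR-145a-3p), beside 21.5% of all miRNAs. Of the 6, 2 were called in the Pkd2 line, both higher (miR-126a-3p and miR-145a-3p), beside 28.3%. All 6 fold changes were above 0 in both lines. Their medians were 0.83 and 0.59 on the log2 scale, against -0.03 and -0.06 over all miRNAs. The P7 and P1 libraries did not overlap for 4 of 6 members in the Pkd1 line and 3 of 6 in the Pkd2 line. The shares over all miRNAs were 33.1% and 49.9%.

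miR-126a-3p rose in both lines. The values of the Pkd1 line went from 956, 1024 and 1235 CPM at P1 through 1408, 1504 and 1545 at P3 to 1470.3, 1524 and 1521 at P7. That of the Pkd2 line went from 3367, 3222 and 3221 through 3695, 3645 and 3906 to 4397, 4787 and 4572 CPM. P7 libraries were above all P1 libraries in both, and the log2 fold changes were 0.49 (SE 0.14, adjusted p = 0.0282) and 0.49 (SE 0.13, adjusted p = 0.00838). Most of it in the Pkd1 line lay between P1 and P3, at 0.47 (SE 0.14, adjusted p = 0.0356), with 0.02 (SE 0.14) from P3 to P7. The P7 minus P1 call of the Pkd1 line was lost without any one of WT replicates 1 and 2 at P1 or 1, 2 and 3 at P7 (log2 0.41 to 0.51, adjusted p = 0.0514 to 0.105), and that from P1 to P3 without any one of WT replicates 1 and 2 at P1 or 1, 2 and 3 at P3 (log2 0.40 to 0.51, adjusted p = 0.0597 to 0.156). The Pkd2 call held in all 6 such fits, but it was lost without the filter on low counts (0.45, adjusted p = 0.113) and under the plain scalings given further on. Its partner miR-126a-5p, with wider errors, changed by 0.43 (SE 0.33, adjusted p = 0.363) and 0.43 (SE 0.29, adjusted p = 0.288) over the same interval and was not called.

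miR-143-3p rose late in the Pkd1 line. It gave 23068, 22551 and 30588 CPM at P1, 20857, 16240.5 and 28324 at P3 and 43529, 37006 and 75306 at P7, and each P7 library exceeded each P1 and P3 library. The log2 fold change was 1.03 (SE 0.31, adjusted p = 0.0282) from P1 to P7 and 1.25 (SE 0.31, adjusted p = 0.0167) from P3 to P7. Replicate 3 at P7 carried much of this: without it, the values were 0.63 (adjusted p = 0.132) and 0.89 (adjusted p = 0.0664). The first call was also lost without WT replicate 1 or 2 at P1 (adjusted p = 0.0785 and 0.0775), and the second without WT replicate 1 or 2 at P3 (adjusted p = 0.0581 and 0.0687). The Pkd2 libraries gave 42779, 36526 and 42140.5 CPM at P1 and 46982, 69718 and 80367 at P7, which do not overlap, and the log2 change of 0.70 (SE 0.33, adjusted p = 0.126) was not called. It passed in a fit of only the libraries compared (0.69, adjusted p = 0.0222).

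miR-143-5p took another course from its partner. In WT of the Pkd1 line it rose from 4.37, 3.18 and 4.27 CPM at P1 to 9.91, 9.08 and 8.62 at P3, then fell to 6.01, 5.98 and 6.29 at P7. The log2 fold changes were 1.22 (SE 0.18, adjusted p = 0.000925), the smallest adjusted p of any member in the Pkd1 line, and -0.59 (SE 0.18, adjusted p = 0.0406). The first held without any single library. The second was lost without any one of the 6 (log2 -0.64 to -0.54, adjusted p = 0.0577 to 0.111), and the rise from P1 to P7, 0.62 (SE 0.19, adjusted p = 0.0287), without WT replicate 2 at P1 or any one at P7 (log2 0.49 to 0.64, adjusted p = 0.0591 to 0.0924). The KO libraries, which were not tested for age, gave 5.48, 4.96 and 4.34 CPM at P1, 8.92, 7.12 and 7.76 at P3 and 8.34, 7.77 and 7.03 at P7. Its WT groups of the Pkd2 line were at 16.9 ± 0.663, 20.8 ± 1.54 and 19.6 ± 2.07 CPM (SD, n = 3), with no call.

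miR-145a-3p showed the steepest rise with age. WT libraries of the Pkd1 line gave 37.2, 34.4 and 57.5 CPM at P1, 92.0, 73.1 and 89.99 at P3 and 116, 94.2 and 137 at P7, each group above the one before without overlap. Those of the Pkd2 line gave 84.5, 71.2 and 79.9 CPM at P1, 67.2, 109.6 and 107 at P3 and 133, 167 and 198 at P7, where P3 overlapped P1 and P7 was above both. From P1 to P7 the log2 fold change was 1.43 (SE 0.30, adjusted p = 0.00462) in the Pkd1 line and 1.08 (SE 0.24, adjusted p = 0.00336) in the Pkd2 line. Both calls held without any single library, whereas the step from P1 to P3 in the Pkd1 line, 0.98 (SE 0.30, adjusted p = 0.0349), was lost without any one library but WT replicate 3 at P1 (log2 0.85 to 1.09, adjusted p = 0.06 to 0.121). miR-145a-5p changed by 1.25 (SE 0.98, adjusted p = 0.383) and 0.88 (SE 0.85, adjusted p = 0.495), neither called.

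Between neighbouring ages, the Pkd1 line had 3 of 6 members called from P1 to P3, all higher (miR-126a-3p, miR-143-5p and miR-145a-3p), beside 18.8% of all miRNAs. From P3 to P7 it had 2 of 6, 1 higher and 1 lower, beside 14.4%. The Pkd2 line had 0 of 6 in both steps, beside 0.268% and 4.16%. Libraries of neighbouring ages did not overlap for 3 of 6 members in each step of the Pkd1 line, beside 29.6% and 32.7% of all miRNAs. In the Pkd2 line this held for 2 of 6 in each step, beside 18.1% and 28.6%. At an unadjusted p under 0.05, 2 members of the Pkd2 line passed from P3 to P7 (miR-126a-3p and miR-145a-3p), which the DESeq2 test called, and 0 from P1 to P3, where the DESeq2 test called 0. Pkd1 WT replicate 1 at P1 held striated muscle miRNAs at 1342 CPM in sum, against at most 77.6 CPM in any other library of the line. Without it, the rises of miR-126a-3p and miR-143-3p from P1 to P7 were 0.41 (adjusted p = 0.105) and 0.97 (adjusted p = 0.0785), while miR-143-5p and miR-145a-3p stayed called.

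The rise of vascular miRNAs with age depended on how libraries were scaled. With plain library totals, the median of all miRNAs moved to -0.68 and -0.78 on the log2 scale (Pkd1 and Pkd2 lines), and no member was called. With totals less the reads of miR-10 it was still -0.48 and -0.60, and miR-145a-3p in the Pkd1 line was the only member called (0.99, adjusted p = 0.0144). The median miR-10 share went from 69.9% at P1 to 79.9% at P7 in WT of the Pkd1 line and from 45.5% to 47.9% in the Pkd2 line. Under plain totals miR-126a-3p stood at -0.15 and -0.22, and miR-143-3p at 0.54 and 0.04. miR-145a-3p stayed above 0 in both lines, at 0.85 and 0.41. The rises were thus measured relative to the bulk of miRNAs, and none was called as a share of the library.

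**Figure D3:**
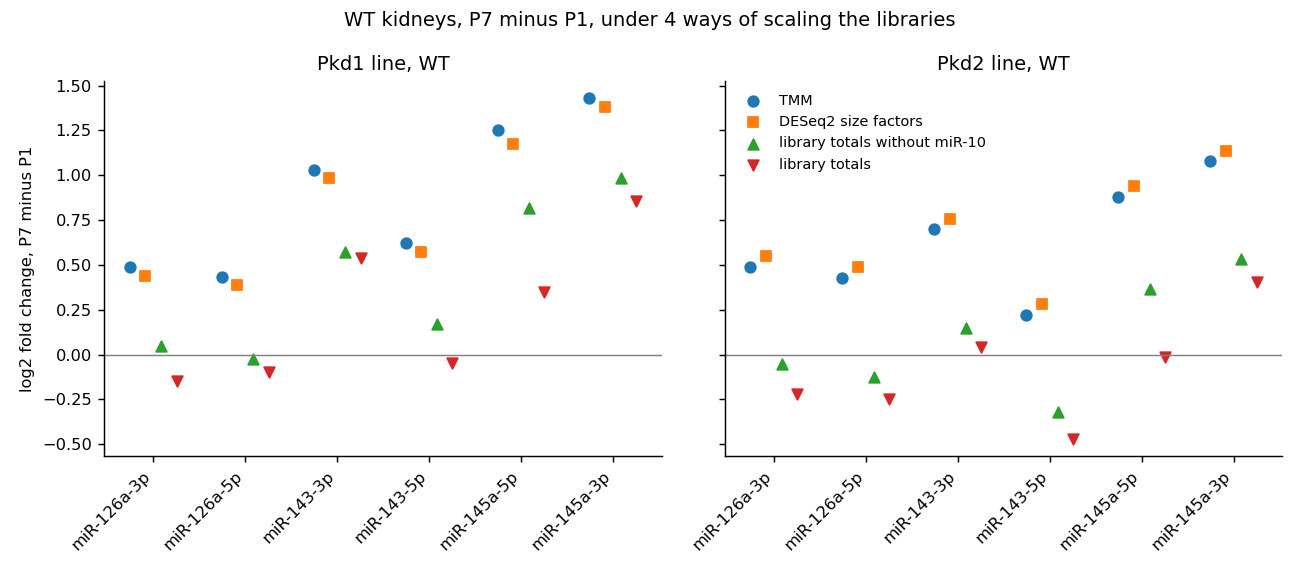
Log2 fold change of each miRNA from P1 to P7 in WT kidneys of the Pkd1 line (left) and the Pkd2 line (right), with the libraries scaled by TMM, DESeq2 size factors, library totals without miR-10a-5p and miR-10b-5p, or library totals. TMM and DESeq2 size factors put all 6 above 0, whereas library totals put miR-126a-3p at -0.15 and -0.22. In each panel, miR-145a-3p is the highest point under every scaling.

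Lists of other cell types also held miRNAs called by age in WT. Of all miRNAs, 21.5% were called from P1 to P7 in the Pkd1 line and 28.3% in the Pkd2 line. From P1 to P7, 3 of 4 nephron tubule miRNAs rose in each line, among them miR-194-5p, with 1.43 log2, adjusted p = 0.00356 in the Pkd1 line, and 1.43 log2, adjusted p = 0.000236 in the Pkd2 line. Of 5 epithelial miRNAs 2 rose in the Pkd1 line and 4 in the Pkd2 line, and of 6 leukocyte miRNAs 4 and 2. Of 5 erythroid miRNAs 1 rose in the Pkd1 line (miR-144-3p) and 0 in the Pkd2 line. Of 6 fibroblast miRNAs, 0 were called in the Pkd1 line and 1, miR-214-3p, fell in the Pkd2 line (-0.62 log2, adjusted p = 0.0315). The median fold change of the fibroblast list was nevertheless above 0, at 0.36 and 0.24 on the log2 scale (Pkd1 and Pkd2 lines). All 6 tested striated muscle miRNAs fell in the Pkd1 line, where the P1 group holds the library with muscle miRNAs, and 0 of 6 were called in the Pkd2 line. The part of cell composition in the rise of the vascular members was not tested.

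Ratios between 2 members of 1 library do not depend on scaling, and gave no call by genotype or age. Over the 5 ratios, 2 lines and both contrasts (20 exact two-sided permutation tests, Benjamini-Hochberg adjusted), the lowest p was that of miR-126a-3p over miR-143-3p in the Pkd1 line. This ratio of an endothelial to a smooth muscle strand was 0.0414, 0.0454 and 0.0404 in WT at P1 and 0.0250, 0.0317 and 0.0287 in KO, without overlap. It was lower on average in KO at each of the 3 ages. The mean log2 difference, KO minus WT, was -0.43 (exact permutation p = 0.0158, adjusted p = 0.315). The value in the Pkd2 line was -0.01 (exact permutation p = 0.96). Over replicate libraries, in deviations from group means, this ratio rose with the miR-10 share (r = 0.80, and 0.72 within the Pkd1 line). The share in the Pkd1 line at P1 was 63.0% to 75.1% in WT and 57.3% to 61.8% in KO, also without overlap. The part of the miR-10 share in the difference of this ratio was not tested. The smallest p that these designs allow is 0.00025 for genotype and 0.005 for age.

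The strands of each hairpin kept very different ratios. miR-126a-3p over miR-126a-5p had a median of 0.228 and stayed between 0.148 and 0.421 over the 36 libraries. miR-143-3p over miR-143-5p had a median of 3165 (range 1108 to 11978). miR-145a-5p over miR-145a-3p had a median of 8.84 and ran from 1.93 to 115, a 59.2-fold range for 2 strands of a single precursor. Both ends of it were within the Pkd1 line: WT replicate 3 at P7 had the lowest value and KO replicate 2 at P3 the highest. In that KO group the ratio was 2.28, 115 and 4.86, so that 1 of 3 replicates carried the difference.

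Members were also compared over replicate libraries, as deviations of log2 CPM from the mean of the group (n = 36, 15 pairs, two-sided permutation within groups). The abundant strands miR-126a-5p and miR-143-3p varied together (Pearson's r = 0.88, Spearman's rho = 0.86, adjusted permutation p = 0.00015 and 0.0001). Without the 2 libraries farthest out r was 0.86, and r was 0.87 and 0.91 within the Pkd1 and Pkd2 lines. miR-143-3p and miR-145a-3p, from neighbouring hairpins, did so too (r = 0.87, rho = 0.87, adjusted permutation p = 0.00015 and 0.0001).

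miR-145a-5p ran against these 3. Its r was -0.93 with miR-126a-5p, -0.86 with miR-143-3p and -0.72 with miR-145a-3p (adjusted permutation p = 0.00015, 0.00015 and 0.00111), and the rho were -0.95, -0.85 and -0.69 (adjusted permutation p = 0.0001, 0.000187 and 0.00137). Without the 2 libraries farthest out the r were -0.91, -0.82 and -0.64. Within the Pkd1 and Pkd2 lines, the r with miR-126a-5p were -0.93 and -0.93, and those with miR-143-3p -0.81 and -0.92. The r with miR-145a-3p was -0.61 in the Pkd1 line, where it did not pass, and -0.87 in the Pkd2 line. Of the 15 pairs 8 passed by r. Members of a library share its depth and scaling factor, and these correlations describe deviations between replicates, not effects of genotype or age.

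**Figure D4:**
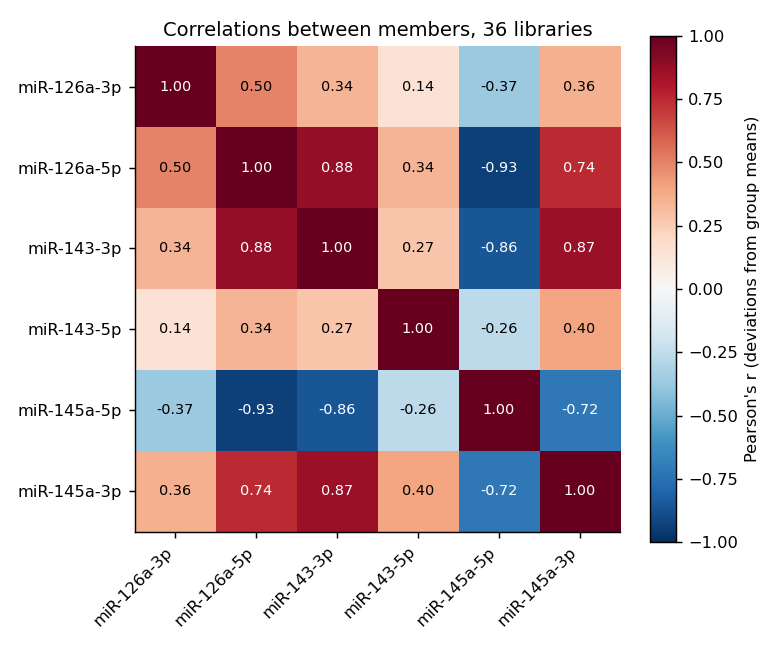
Pearson's r between the 6 miRNAs over 36 libraries, each value being the deviation of log2 CPM from the mean of its group, with red above 0 and blue below. miR-126a-5p, miR-143-3p and miR-145a-3p form a block of positive r (0.74 to 0.88), and miR-145a-5p has a negative r with every other member.

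A measure that moved with these deviations was the miR-10 share, a relation looked at after the values were seen (11 relations, Benjamini-Hochberg adjusted). It was not compared with other measures of a library. miR-10a-5p and miR-10b-5p differ at 1 base and share their seed, in capitals:
miR-10a-5p: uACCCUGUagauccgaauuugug
miR-10b-5p: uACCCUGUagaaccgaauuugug
Against the miR-10 share, in deviations from group means, miR-145a-5p had r = 0.98 and rho = 0.97 (adjusted permutation p = 2.75e-05 for both, from the smallest p that 100000 resamples can give, 1e-05). It held within the Pkd1 line (r = 0.98), within the Pkd2 line (r = 0.98) and without the 2 libraries farthest out (r = 0.97). miR-126a-5p (r = -0.90, rho = -0.89) and miR-143-3p (r = -0.84, rho = -0.80) went the other way (adjusted permutation p at most 0.000393), and miR-126a-3p showed no relation that passed (r = -0.31, rho = -0.17, adjusted permutation p = 0.271 and 0.443).

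Strand ratios, which do not depend on scaling, followed the miR-10 share too. miR-145a-5p over miR-145a-3p had r = 0.98 and rho = 0.96 with the miR-10 share, and miR-126a-3p over miR-126a-5p r = 0.91 and rho = 0.92 (adjusted permutation p = 2.75e-05 for each). miR-143-3p over miR-143-5p had r = -0.74 and rho = -0.67 (adjusted permutation p = 0.00117 and 0.00238). As a plain share of the library, where a larger miR-10 share lowers the others by construction, miR-145a-5p still had r = 0.93. KO replicate 2 of the Pkd1 line at P3 shows the extreme, with 79.8% of its reads in miR-10, 42169 reads of miR-145a-5p and 368 of miR-145a-3p. Its sister library KO replicate 1, with 31.4% in miR-10, had 11987 and 5261. Over the 36 libraries without group means taken off, r of the miR-145a ratio with the miR-10 share was 0.59. That value mixes differences within and between groups, and the relation between group means alone was not tested.

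**Figure D5:**
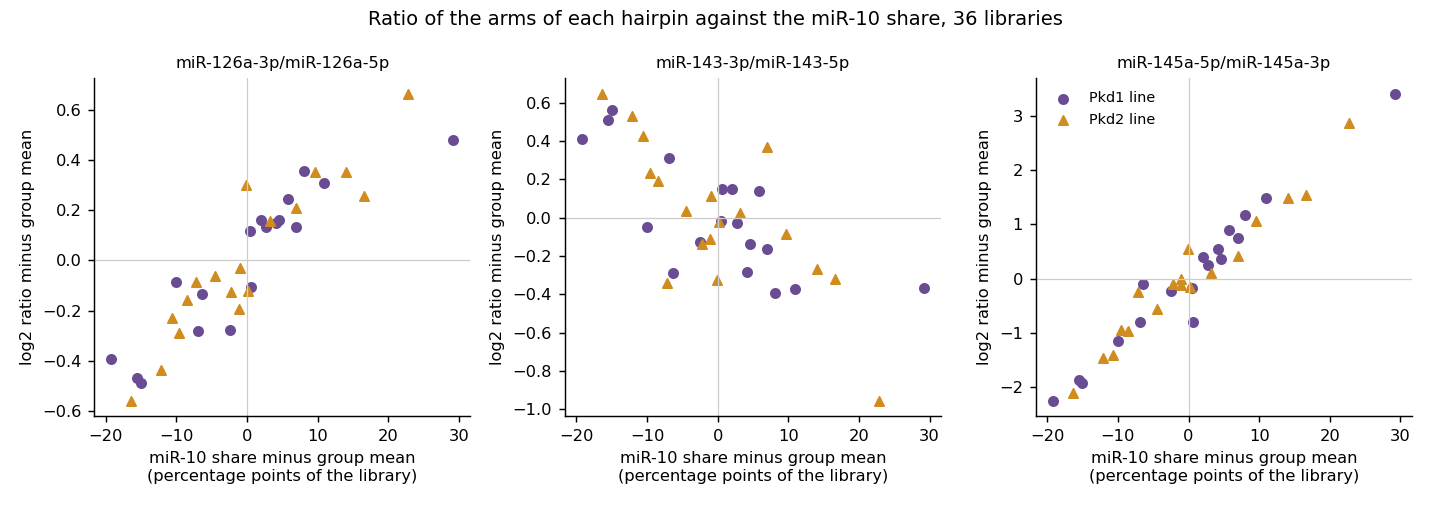
Log2 ratio of the arms of each hairpin against the share of miR-10a-5p and miR-10b-5p in the library, both as deviations from the mean of the group, for 18 libraries of the Pkd1 line (circles) and 18 of the Pkd2 line (triangles). The ratio of miR-145a-5p to miR-145a-3p climbs with the miR-10 share over 5.65 log2 units (r = 0.98), that of miR-126a-3p to miR-126a-5p over 1.22, and that of miR-143-3p to miR-143-5p falls.

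The miRNAs most like each abundant strand were taken by Spearman's rho of log2 CPM over the 36 libraries, among 689 miRNAs tested in both lines. These points share library depth and scaling, and the rho are descriptions. Closest to miR-145a-5p were miR-155-5p (0.92), miR-186-5p (0.89) and miR-23a-3p (0.87), whereas its own partner miR-145a-3p had 0.073. Closest to miR-126a-5p were miR-542-5p (0.90), miR-200a-5p (0.90) and miR-10a-3p (0.88), with 0.75 for miR-126a-3p. Closest to miR-143-3p were miR-101a-3p (0.89), miR-340-5p (0.87) and miR-192-5p (0.86), with 0.00077 for miR-143-5p. The sequences closest to miR-145a-5p are shown because their counts moved with it more than its own partner did, and their 3 seeds differ from one another:
miR-155-5p: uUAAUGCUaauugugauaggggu
miR-186-5p: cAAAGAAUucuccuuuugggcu
miR-23a-3p: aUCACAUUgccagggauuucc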

How the data were processed

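Total RNA of kidneys was used for miRNA-seq. The authors trimmed adaptors, discarded short reads and counted the rest with miRDeep2 against miRBase 21 and mm10 (CASAVA 1.8.2 is named in the submitters' processing notes). The authors deposited raw read counts with 2061 rows, a row per mature miRNA and hairpin. For miRNAs listed under several hairpins, the row with the highest total was kept, leaving 1915. The labels do not say that replicates are separate animals, so p-values measure the spread between these libraries. The targeted mRNAs were not analysed here, so genotype labels were not checked.

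Each line's 18 libraries were fitted with edgeR 4.0.16 in R 4.3.3 (TMM, quasi-likelihood F-test, 1 term per group), after leaving out miRNAs that did not reach 10 counts in 3 libraries. The difference between lines was tested on all 36. Log2 CPM used a prior count of 2. DESeq2 1.42.0 was an alternative. Ratios used exact permutation tests and correlations 100000 permutations within groups (Python with NumPy). The edgeR test of KO effects at P7, the exact permutation test and the correlation test were tried on simulated data. The age comparisons and the alternative fits were not.

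Named miRNAs are the 6 members, relatives by name, the 3 likest miRNAs per abundant strand, up to 2 per list of the 6 marker lists, and miR-10. Members and lists were chosen with earlier results of these data known. Other scalings, no filter, DESeq2, fewer libraries in the fit, a replicate block and leaving out each library were tried. A miR-10 covariate was added after seeing the data. Standard errors cover counting and library spread only, and reads carried no molecular identifiers.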

Additional observations from a re-analysis of the deposited data

How the results depend on the processing

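Of the 11 log2 fold changes called among the members, all in WT age comparisons, 154 values under the alternatives kept the side of the threshold in 91 cases, lost it in 59 and changed sign in 4. Of the 103 values not called, 1730 of 1754 stayed uncalled, 24 passed, and 170 changed sign. In the comparisons that involve KO, the count of members called was 0 in 230 of 234 cases. The others were Pkd2 KO minus WT at P7, with 2 under the DESeq2 test, 2 when the miR-10 share entered as a covariate (added after seeing the data) and 0 to 1 when 1 library was left out, and the Pkd2 effect averaged over ages, with 1 under the covariate. With the covariate, the 2 at P7 were miR-126a-5p (-0.60, adjusted p = 0.00924) and miR-145a-5p (0.58, adjusted p = 0.0481).

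With library totals alone, the members called in WT were 0 in Pkd1 P3 minus P1, 0 in Pkd1 P7 minus P1 and 0 in Pkd2 P7 minus P1, and with totals without miR-10 they were 1 in Pkd1 and 0 in Pkd2 P7 minus P1. With only the libraries compared in the fit they were 0 in Pkd1 P3 minus P1, 0 in P7 minus P3 and 1 in P7 minus P1, but 3 in Pkd2 P7 minus P1, and without a filter 1 in Pkd1 P7 minus P3, 2 in Pkd1 P7 minus P1 and 1 in Pkd2 P7 minus P1. In Pkd2 P7 minus P3 they were 1 with DESeq2 size factors, 2 with the DESeq2 test and 3 with the covariate, which gave 4 in Pkd1 P7 minus P3, 6 in Pkd1 P7 minus P1 and 4 in Pkd2 P7 minus P1. Leaving out 1 library gave 1 to 3 in Pkd1 P3 minus P1, 0 to 1 in P7 minus P3 and 1 to 4 in P7 minus P1, while Pkd2 P7 minus P1 stayed at 2. In Pkd1, the rise of miR-126a-3p from P1 to P7 (0.41 to 0.60) was lost in 5 of 6 such fits and that of miR-145a-3p in none.

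Sign changes are listed here only where the value was called before or after the change, and other uncalled values also changed sign. The sign changed for miR-126a-3p in Pkd1 WT P7 minus P3 (-1.23 with library totals and -0.41 with totals without miR-10, both called, where the medians of all miRNAs were -1.27 and -0.44), in Pkd1 WT P7 minus P1 (-0.15 with library totals) and in Pkd2 WT P7 minus P1 (-0.22 with library totals and -0.052 with totals without miR-10). It also changed for miR-143-5p in Pkd1 WT P7 minus P1 (-0.0475 with library totals) and for miR-145a-5p in Pkd1 WT P7 minus P3 (-1.93 with the covariate). With library totals the medians of all miRNAs for P7 minus P1 were -0.68 (Pkd1) and -0.78 (Pkd2), and in Pkd2 with totals without miR-10 -0.60, so these scalings moved most miRNAs down together. The cause of the change under the covariate was not tested.

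Replicate numbers are shared by WT and KO, but no label says that a number marks a litter. Same-numbered libraries deviated together (r over 0.1) in 7 of 18 pairs, with r from -0.48 to 0.507, and each correlated best with its own number in 7 of 18, so the numbers were not taken to pair the samples. A replicate block left 113 of 114 fold changes on their side of the threshold. The exception was miR-143-5p in Pkd1 WT P7 minus P3 (-0.59, adjusted p = 0.0538), where the members called went from 2 to 1.

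Among the 20 ratio tests, the single change was miR-126a-3p over miR-143-3p in the Pkd1 line, which ranged from -0.53 to -0.36 and passed without WT replicate 3 at P7 (-0.53, adjusted permutation p = 0.035). With library totals alone, 7 further correlations passed: miR-126a-3p with miR-143-3p (r = 0.95), miR-143-5p (0.95), miR-145a-5p (-0.90) and miR-145a-3p (0.95), and miR-143-5p with miR-126a-5p (0.94), miR-143-3p (0.92) and miR-145a-5p (-0.81). miR-126a-3p with miR-126a-5p no longer passed with totals without miR-10 (0.40) or in the Pkd2 line alone (0.18), nor did miR-143-5p with miR-145a-3p with totals without miR-10 (0.42), in the Pkd1 line (0.57) or in the Pkd2 line (0.20). In the Pkd1 line alone, miR-126a-5p with miR-145a-3p (0.65) and miR-145a-5p with miR-145a-3p (-0.61) did not pass. Depth limited miR-143-5p most, with as few as 35 reads in a library.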

Other observations

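Across 130 hairpins with at least 3600 reads of each arm over all libraries, the arm ratio of Mir145a (abundant over rare arm) varied most between replicate libraries. Its SD within groups on the log2 CPM scale was 1.54, rank 1, against a median of 0.360. Its r with the miR-10 share, in deviations from group means, was 0.976, the 3rd highest after the hairpins of miR-10a and miR-10b themselves, whose arms enter the share. Mir143 (r = -0.742) and Mir126a (r = -0.914, miR-126a-5p over miR-126a-3p) stood at ranks 109 and 123, near the other end. Over all 130 hairpins, r was above 0.5 in 39 and below -0.5 in 44, with a median of -0.187, so strand ratios that follow the miR-10 share in either direction were common in these libraries. These are descriptions over hairpins that share their libraries, with no test.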
